A study of Mus musculus with 18 samples.

Results

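The matrix glycoproteins and proteoglycans are 51 mouse genes for the secreted and cell surface proteins of the extracellular matrix other than collagens. They were taken by gene symbol from a given list and matched to 51 Ensembl identifiers among the 47643 in the deposited count table. Their RNA was measured by sequencing in MPC3, a mouse prostate cancer cell line, in 3 groups of 6 libraries. The control libraries are titled plko, the name of a lentiviral vector family that carries short hairpin RNAs, and are labelled as control. The other groups carry the hairpins shRNF185.1 and shRNF185.3, labelled as a knockdown of Rnf185, which encodes a ubiquitin ligase of the endoplasmic reticulum. Every group was MPC3 without any other agent in the labels, each group has its replicates 1 and 2 in batch 1, 3 and 4 in batch 2, and 5 and 6 in batch 3, and the labels do not say whether a group is 1 clone or a pool of transduced cells. The labels also do not say that the 6 replicates were separate cultures, so p-values measure only the spread between these libraries, which may be technical.

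As background, matrix glycoproteins such as fibronectin, thrombospondins and fibrillins carry binding sites for cells, growth factors and other matrix proteins, and they shape how a matrix is assembled and read by integrins. Matricellular members, among them Sparc, tenascins and periostin, act mainly on adhesion and signalling and less as scaffold. Proteoglycans are core proteins with glycosaminoglycan chains: decorin and its relatives bind collagen fibrils, perlecan and agrin sit in basement membranes, and syndecans and glypicans hold heparan sulfate at the cell surface, where it binds growth factors. In prostate cancer these proteins have been studied mostly as products of the stroma, but carcinoma cells also make many of them.

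The libraries held 22027395 to 43379662 counts. Levels are given as CPM, the deposited library-scaled counts. Rnf185 itself was 35.9 ± 1.96 CPM in control (SD, n = 6), 5.81 ± 0.582 CPM under shRNF185.1 and 5.80 ± 0.546 CPM under shRNF185.3, which is the direction of the labels for both hairpins. Of the 51 members, 39 had enough counts to be tested and 12 did not. The 39 passed a filter that asks for at least 0.368 CPM in at least 6 of the 18 libraries, and 37 of them exceeded that level in every library. The exceptions were Fbn2, which exceeded it in 3 of 6 libraries under shRNF185.1, and Ogn, which exceeded it in 4 of 6 control libraries. The 12 untested members were Lum, with at most 16 counts in any library, Aspn with at most 10, Cspg4 with at most 8, Mfap2 and Nid2 with at most 4, Mfap4 and Mfap5 with at most 3, Gpc3 with at most 2, Vtn and Egfl6 with at most 1, and Thbs4 and Eln with 0 counts in all 18 libraries. A count of 0 allows up to 3 counts, or 0.07007 to 0.1335 CPM depending on the library (counting error only). The gene for elastin itself was therefore not detected at this depth, and neither was that for thrombospondin 4 or, beyond single counts, that for vitronectin.

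Levels between genes were compared as CPM per kilobase of exon, with exon lengths from GENCODE M21. In control, Thbs1, a matricellular glycoprotein that can activate latent TGF-beta, was highest at 395 CPM per kilobase. Sparc, a collagen-binding matricellular protein, followed at 242 and Fn1, fibronectin, the main adhesive glycoprotein of a fibrillar matrix, at 218. Sparc and Fn1 overlapped over the 6 control libraries (227 to 257 against 161 to 256 CPM per kilobase), while Thbs1 lay above both, from 326 to 500.1. Next came Efemp1 at 82.7, Sdc1 at 78.8, Nid1 at 77.2, Sdc3 at 70.5, Ecm1 at 68.6, Sdc4 at 66.1 and Fbln2 at 62.2 CPM per kilobase, and the ranges of neighbours in this order overlapped. The lowest of the tested members were Gpc6 at 0.299, Ogn at 0.261 and Fbn2 at 0.0661. Among the small leucine-rich and hyaluronan-binding proteoglycans, Vcan was highest at 33.4 CPM per kilobase, and Bgn followed at 4.67. Summed over the 51 members, their CPM made up 1.09% ± 0.0926 of the nominal CPM total in control (SD, n = 6). It was 1.16% ± 0.0677 under shRNF185.1 and 1.3% ± 0.0862 under shRNF185.3. Fn1, Thbs1 and Sparc made up 53.6%, 47.8% and 53.2% of the members' sum. The deposited columns themselves sum to between 969986 and 1026394 CPM, so these percentages of the total are approximate shares of a library.

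**Figure D1:**
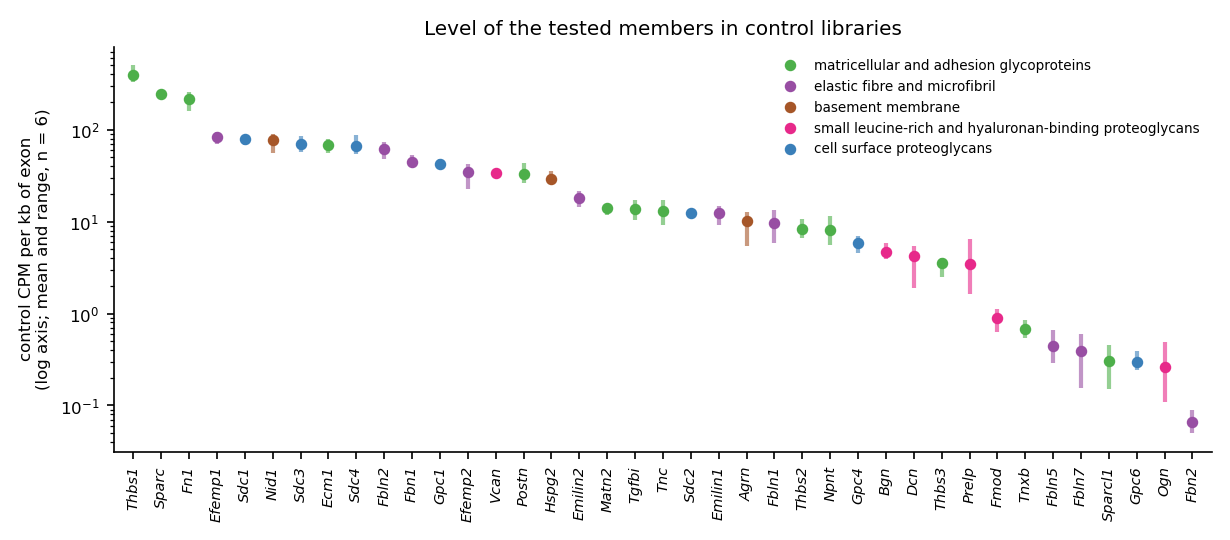
Control level of the 39 tested members as CPM per kilobase of exon on a log axis, with the mean (point) and range (bar) over 6 control libraries, coloured by role group. Thbs1, Sparc and Fn1 stand above the other members, at 395, 242 and 218 CPM per kilobase.

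The first question was which of these genes changed with each hairpin. Calls rest on an adjusted p under 0.05 in edgeR's quasi-likelihood test with Benjamini-Hochberg adjustment over the 14309 genes tested. With shRNF185.1, 18 of the 39 tested members (46.15%) were called higher than control, where 14.6% of all genes tested were, and 6 (15.38%) were called lower, where 14.3% were. With shRNF185.3, 22 members (56.41%) were called higher, against 14.2% of all genes tested, and 1 (2.564%) was called lower, against 13.1%. The median log2 fold change of the tested members was 0.26 under shRNF185.1 and 0.47 under shRNF185.3, and that of all genes tested was -0.02 in both. The comparisons share the 6 control libraries, so their values are given side by side and their likeness is not a result.

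**Figure D2:**
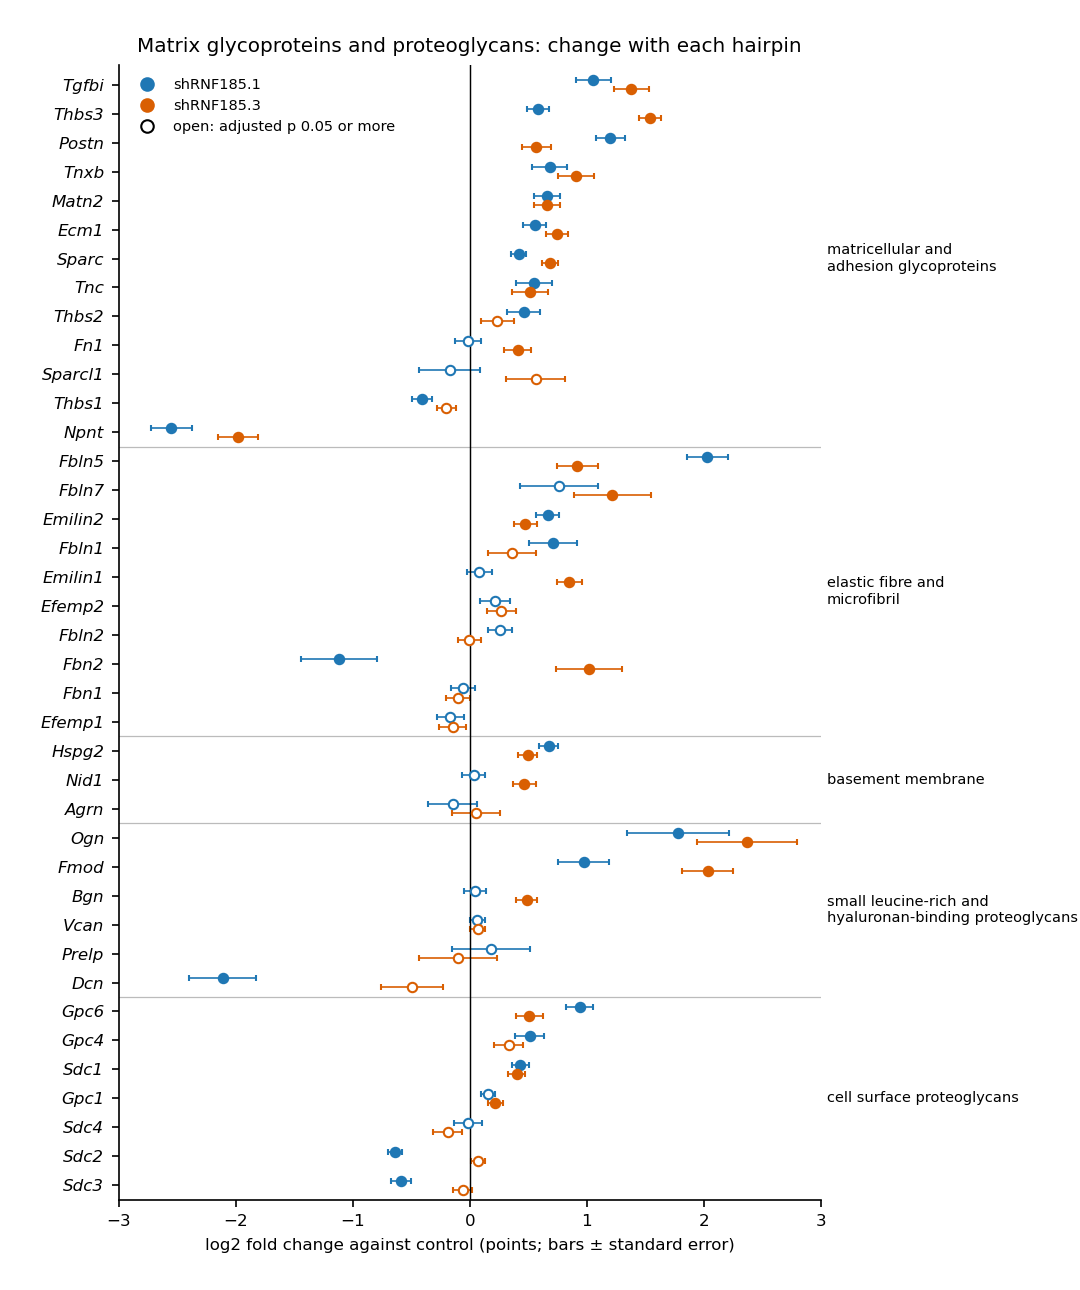
Log2 fold change against control of the 39 tested members under shRNF185.1 (blue) and shRNF185.3 (orange), as points with bars of 1 standard error, ordered by role group; open points have an adjusted p of 0.05 or more. Npnt lies far to the left with both hairpins (-2.55 and -1.98), and Ogn (1.78 and 2.37) and Fmod (0.98 and 2.03) far to the right.

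Matricellular and adhesion glycoproteins were the role group with the most members tested, 13, and gave the most calls. Under shRNF185.1, 9 (69.23%) were called higher and 2 (15.38%) lower, where 14.6% and 14.3% of all genes tested were. Under shRNF185.3, 9 (69.23%) were called higher and 1 (7.692%) lower, where 14.2% and 13.1% of all genes tested were. The thrombospondins, large calcium-binding glycoproteins that cells secrete onto collagens and integrins, went in different directions. Thbs3 ranged from 12.1 to 19.4 CPM in control (median 17.4), from 23.1 to 28.9 CPM under shRNF185.1 (median 25.3) and from 45.0 to 55.3 CPM under shRNF185.3 (median 49.2). The 3 groups did not overlap, and every library under shRNF185.3 was above every library under shRNF185.1. The Thbs3 log2 fold change against control was 0.59 (SE 0.094, adjusted p = 0.000119) under shRNF185.1 and 1.54 (SE 0.095, adjusted p = 1.66e-09) under shRNF185.3. Batch by batch (1, 2, 3), Thbs3 differed from control by 0.43, 0.54 and 0.83 on the log2 scale under shRNF185.1 and by 1.43, 1.52 and 1.7 under shRNF185.3. Thbs3 lies at chr3:89215180-89226837 (mm10), and 6.59% of its exonic bases overlap Mtx1 on the other strand, whose reads can be told apart only if the counting used strand, which is not given in the sources used here.

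Thbs1 ranged from 1982 to 3037 CPM in control (median 2354), from 1663 to 1879 CPM under shRNF185.1 (median 1835) and from 1801 to 2268 CPM under shRNF185.3 (median 2101). All 6 libraries under shRNF185.1 were below the lowest control library, and 2 of 6 under shRNF185.3 were. The Thbs1 log2 fold change against control was -0.41 (SE 0.083, adjusted p = 0.00103) under shRNF185.1 and -0.20 (SE 0.083, adjusted p = 0.0824) under shRNF185.3. The Thbs1 differences within batches 1, 2 and 3 were -0.47, -0.44 and -0.27 on the log2 scale under shRNF185.1 and -0.43, -0.17 and 0.03 under shRNF185.3. Thbs1 was called lower under shRNF185.1 and was not called under shRNF185.3; without control replicate 5 the shRNF185.3 value was -0.25 (adjusted p = 0.0272), past the threshold. Thbs1 lies at chr2:118111876-118127133. Thbs2, an inhibitor of blood vessel growth closely related to Thbs1, was 57.9 ± 10.7 CPM in control, 79.7 ± 15.0 CPM under shRNF185.1 and 68.0 ± 11.8 CPM under shRNF185.3 (SD, n = 6), with log2 fold changes of 0.46 and 0.24. It was called higher under shRNF185.1 (adjusted p = 0.0168), but batch 2 gave -0.16, and the call was lost without batch 1, at 0.36 (adjusted p = 0.246), and without batch 3, at 0.26 (adjusted p = 0.309). Without batch 2 the Thbs2 value under shRNF185.3 was 0.36 (adjusted p = 0.0179), past the threshold.

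Periostin and Tgfbi share the fasciclin fold and bind integrins and collagens, and both rose with each hairpin. Postn ranged from 229 to 377 CPM in control (median 287), from 586 to 776 CPM under shRNF185.1 (median 651) and from 325 to 512 CPM under shRNF185.3 (median 410.4). The shRNF185.1 libraries stood above all others, and 4 of 6 libraries under shRNF185.3 exceeded the highest control library. The Postn log2 fold change against control was 1.2 (SE 0.12, adjusted p = 8.53e-07) under shRNF185.1 and 0.57 (SE 0.12, adjusted p = 0.00181) under shRNF185.3. For Postn the batch by batch log2 differences from control were 1.08, 1.16 and 1.4 under shRNF185.1 and 0.46, 0.49 and 0.75 under shRNF185.3. The hairpins differed without overlap: the Postn log2 difference of shRNF185.3 from shRNF185.1 was -0.63 (SE 0.12, adjusted p = 0.0014). Tgfbi ranged from 39.0 to 64.5 CPM in control (median 51.1), from 86.0 to 154 CPM under shRNF185.1 (median 100.4) and from 101 to 165 CPM under shRNF185.3 (median 135). Each library of either hairpin was above every control library, and the hairpins overlapped. The Tgfbi log2 fold change against control was 1.06 (SE 0.15, adjusted p = 3.06e-05) under shRNF185.1 and 1.38 (SE 0.15, adjusted p = 1.7e-06) under shRNF185.3. Batch by batch (1, 2, 3), Tgfbi differed from control by 1.02, 0.54 and 1.56 on the log2 scale under shRNF185.1 and by 1.45, 1.12 and 1.57 under shRNF185.3. The genes lie at chr3:54361109-54391037 for Postn and chr13:56609523-56639562 for Tgfbi.

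Npnt, nephronectin, is an integrin ligand best known from epithelial basement membranes, and it had the lowest log2 fold change of the 39 tested members. Npnt ranged from 28.0 to 58.4 CPM in control (median 40.9), from 5.27 to 9.0 CPM under shRNF185.1 (median 6.75) and from 7.9 to 13.5 CPM under shRNF185.3 (median 9.97). Every library of either hairpin was far below every control library. The Npnt log2 fold change against control was -2.55 (SE 0.17, adjusted p = 6.14e-09) under shRNF185.1 and -1.98 (SE 0.17, adjusted p = 9.91e-08) under shRNF185.3. These correspond to 0.171 and 0.254 times the control level. The Npnt differences within batches 1, 2 and 3 were -2.58, -3.06 and -1.93 on the log2 scale under shRNF185.1 and -2.0, -2.51 and -1.33 under shRNF185.3. Npnt was a little higher under shRNF185.3 than under shRNF185.1, by 0.57 (SE 0.18, adjusted p = 0.0337), and that call was lost under 10 of 30 alternatives. Leaving out 1 library of shRNF185.1 lost it for replicate 2, at 0.51 (adjusted p = 0.081), replicate 3, at 0.56 (adjusted p = 0.0641), replicate 4, at 0.50 (adjusted p = 0.0804), and replicate 6, at 0.56 (adjusted p = 0.0565). Leaving out 1 of shRNF185.3 lost it for replicate 1, at 0.55 (adjusted p = 0.0641), replicate 5, at 0.48 (adjusted p = 0.0831), and replicate 6, at 0.57 (adjusted p = 0.0569). The others were a batch covariate, at 0.57 (adjusted p = 0.0563), leaving out batch 1, at 0.57 (adjusted p = 0.227), and leaving out batch 2, at 0.58 (adjusted p = 0.0552). It lies at chr3:132881745-132950291.

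Sparc and fibronectin are the remaining members of this group with very high levels. Sparc ranged from 859.9 to 973 CPM in control (median 918), from 1149 to 1427 CPM under shRNF185.1 (median 1181) and from 1223 to 1606 CPM under shRNF185.3 (median 1498). All libraries of both hairpins were above all control libraries. The Sparc log2 fold change against control was 0.42 (SE 0.066, adjusted p = 9.92e-05) under shRNF185.1 and 0.69 (SE 0.066, adjusted p = 4.13e-07) under shRNF185.3. For Sparc the batch by batch log2 differences from control were 0.51, 0.31 and 0.42 under shRNF185.1 and 0.64, 0.64 and 0.77 under shRNF185.3. Fn1 ranged from 1880.0 to 2992 CPM in control (median 2639), from 2146 to 2920.3 CPM under shRNF185.1 (median 2534) and from 2772 to 4064 CPM under shRNF185.3 (median 3315). The control and shRNF185.1 libraries overlapped throughout, and 5 of 6 libraries under shRNF185.3 were above the highest control library. The Fn1 log2 fold change against control was -0.01 (SE 0.11, adjusted p = 0.947) under shRNF185.1 and 0.41 (SE 0.11, adjusted p = 0.0108) under shRNF185.3. Batch by batch (1, 2, 3), Fn1 differed from control by 0.33, -0.38 and 0.02 on the log2 scale under shRNF185.1 and by 0.59, 0.17 and 0.48 under shRNF185.3. The call under shRNF185.3 was lost without batch 1, at 0.32 (adjusted p = 0.066), and without batch 3, at 0.37 (adjusted p = 0.112). Sparc lies at chr11:55394500-55423183 and Fn1 at chr1:71585520-71653200.

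The other matricellular members were called higher or not called. Tenascin C (Tnc), which loosens cell adhesion, was 102 ± 22.6 CPM in control, 149 ± 26.1 CPM under shRNF185.1 and 146 ± 32.0 CPM under shRNF185.3 (SD, n = 6), with log2 fold changes of 0.55 and 0.51, both called. The Tnc call under shRNF185.3 was lost without shRNF185.3 replicate 6, at 0.42 (adjusted p = 0.0562), and both were lost without batch 1, at 0.38 (adjusted p = 0.203) and 0.57 (adjusted p = 0.0616), and without batch 3, at 0.49 (adjusted p = 0.0729) and 0.35 (adjusted p = 0.215). Tenascin X (Tnxb), which ties collagen fibrils together, had a control mean of 8.28 ± 1.7 CPM and log2 fold changes of 0.68 and 0.91. For Tnxb, 4.12% of its 75-base windows also occur in Tnxa, a partial copy, so a part of its counts could be split between them. Ecm1, a secreted glycoprotein that binds perlecan, had a control mean of 173 ± 25.2 CPM and log2 fold changes of 0.55 and 0.75, and Matn2, a filament-forming adaptor of the matrilin family, one of 87.5 ± 8.49 CPM and changes of 0.66 and 0.66. For Ecm1 and for Matn2, both hairpins had all 6 libraries over the control range. Sparcl1, a relative of Sparc, was low at 0.888 ± 0.358 CPM and was not called (log2 fold changes of -0.17, adjusted p = 0.665, and 0.56, adjusted p = 0.106). Without batch 2 the Sparcl1 value under shRNF185.3 was 1.02 (adjusted p = 0.011), past the threshold.

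**Figure D3:**
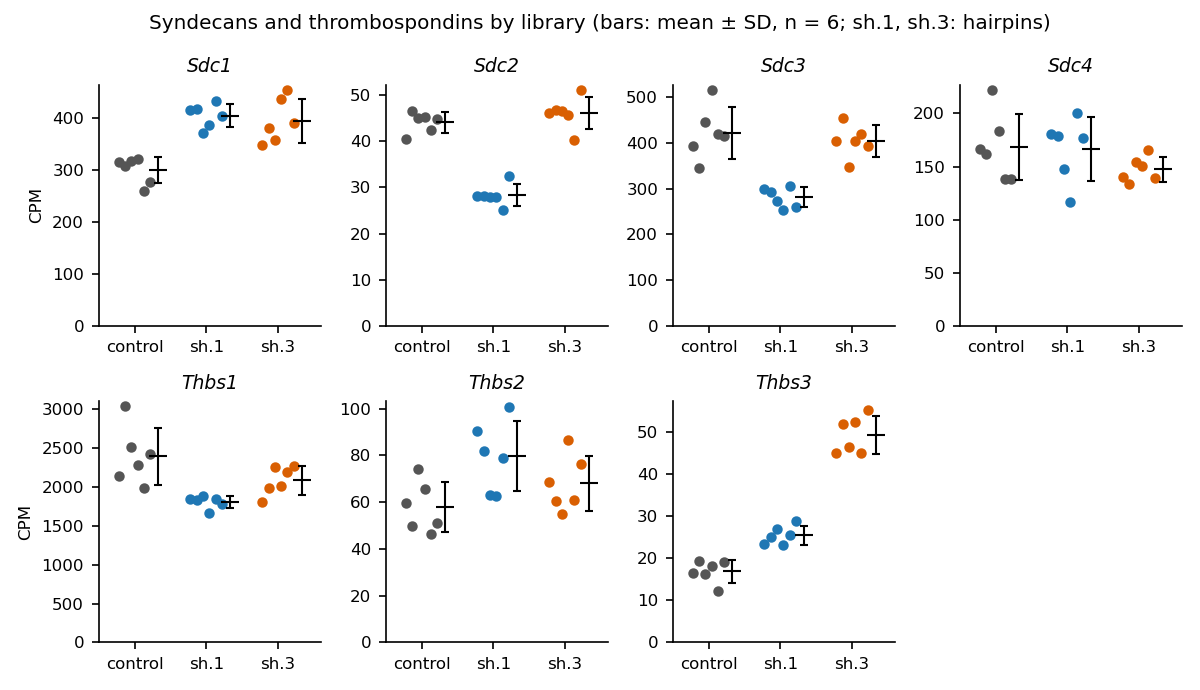
CPM of the 4 syndecans and the 3 tested thrombospondins in each of the 18 libraries (points), with the mean ± SD of each group (n = 6); sh.1 and sh.3 are the hairpins. Thbs3 rises from control to shRNF185.1 to shRNF185.3 without overlap, and Sdc2 and Sdc3 are lowest under shRNF185.1.

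Elastic fibre and microfibril genes encode the fibrillins, which form the microfibril, and the fibulins and emilins that bind it or help elastin to be laid on it. Of 10 tested, 3 (30%) were called higher and 1 (10%) lower under shRNF185.1, where 14.6% and 14.3% of all genes tested were. Under shRNF185.3, 5 (50%) were called higher and 0 lower, where 14.2% and 13.1% of all genes tested were. Fbln5 tethers elastin and its cross-linking enzymes to microfibrils. Fbln5 ranged from 2.01 to 4.63 CPM in control (median 2.79), from 9.27 to 14.6 CPM under shRNF185.1 (median 13.0) and from 4.74 to 7.15 CPM under shRNF185.3 (median 5.47). The groups did not overlap, and the shRNF185.1 libraries were highest, with those of shRNF185.3 between them and control. The Fbln5 log2 fold change against control was 2.03 (SE 0.18, adjusted p = 9.44e-08) under shRNF185.1 and 0.92 (SE 0.18, adjusted p = 0.000694) under shRNF185.3. The Fbln5 differences within batches 1, 2 and 3 were 1.76, 2.51 and 1.84 on the log2 scale under shRNF185.1 and 0.73, 1.33 and 0.75 under shRNF185.3. Between the hairpins Fbln5 differed by -1.11 (SE 0.17, adjusted p = 0.000147), lower under shRNF185.3. It lies at chr12:101746565-101819055.

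Fbn2, the fibrillin of developing tissue, was called lower under shRNF185.1 and higher under shRNF185.3, at the lowest level per kilobase of the tested members. Fbn2 ranged from 0.661 to 1.19 CPM in control (median 0.809), from 0.190 to 0.686 CPM under shRNF185.1 (median 0.371) and from 0.890 to 2.52 CPM under shRNF185.3 (median 1.88). Its counts ran from 5 to 81 over these libraries. With shRNF185.1, 5 of 6 libraries were below the control range, and under shRNF185.3, 4 of 6 were above it. The Fbn2 log2 fold change against control was -1.12 (SE 0.32, adjusted p = 0.0135) under shRNF185.1 and 1.02 (SE 0.28, adjusted p = 0.0107) under shRNF185.3. For Fbn2 the batch by batch log2 differences from control were -1.18, -0.75 and -1.25 under shRNF185.1 and 0.58, 1.43 and 0.58 under shRNF185.3. Tested directly, the hairpins differed by 2.14 (SE 0.31, adjusted p = 9.87e-05), and all 6 libraries under shRNF185.3 were above all 6 under shRNF185.1. Against control neither call held in every setting: without batch 3 the shRNF185.1 value was -0.96 (adjusted p = 0.113), and without batch 2 the shRNF185.3 value was 0.75 (adjusted p = 0.15). Fbn1, the main fibrillin of adult tissue, had a control level of 44.3 CPM per kilobase where Fbn2 had 0.0661, and was not called with either hairpin (-0.06 and -0.10). An antisense gene, Gm9913, overlaps 20.1% of the exonic bases of Fbn1.

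Fbln7, a short adhesive fibulin, was called under shRNF185.3 and not under shRNF185.1. Fbln7 ranged from 0.502 to 1.93 CPM in control (median 1.25), from 1.22 to 4.05 CPM under shRNF185.1 (median 1.64) and from 2.31 to 4.36 CPM under shRNF185.3 (median 2.63). All 6 libraries under shRNF185.3 were above the control range and 2 of 6 under shRNF185.1 were. The Fbln7 log2 fold change against control was 0.76 (SE 0.33, adjusted p = 0.0975) under shRNF185.1 and 1.22 (SE 0.33, adjusted p = 0.00962) under shRNF185.3. Batch by batch (1, 2, 3), Fbln7 differed from control by 0.51, -0.27 and 1.91 on the log2 scale under shRNF185.1 and by 0.84, 0.85 and 2.11 under shRNF185.3. The hairpins were not shown to differ (0.46, adjusted p = 0.429), and without batch 3 the shRNF185.3 value was 0.84 (adjusted p = 0.0779). Without batch 2 the Fbln7 value under shRNF185.1 was 1.25 (adjusted p = 0.0324), past the threshold. Fbln7 lies at chr2:128862981-128897034. Emilin1 and Emilin2 lie at the boundary of elastin and microfibrils. Emilin1 was 60.9 ± 10.5 CPM in control, 64.5 ± 8.02 CPM under shRNF185.1 and 109.6 ± 11.6 CPM under shRNF185.3 (SD, n = 6): all 6 libraries under shRNF185.3 were above the other groups, the log2 fold changes were 0.08 (adjusted p = 0.608) and 0.85 (adjusted p = 8.58e-06), and the hairpins differed by 0.77 (adjusted p = 5.66e-05). Emilin2 was 99.0 ± 16.7 CPM in control, 157 ± 15.8 CPM under shRNF185.1 and 137 ± 14.6 CPM under shRNF185.3, with log2 fold changes of 0.66 and 0.47, both called.

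Fbln1, a fibulin that binds fibronectin, was 42.5 ± 12.4 CPM in control, 69.7 ± 17.6 CPM under shRNF185.1 and 54.5 ± 12.7 CPM under shRNF185.3, and was called under shRNF185.1 at 0.71 (adjusted p = 0.0126) and not under shRNF185.3 at 0.36 (adjusted p = 0.204). In batch 2 the Fbln1 difference under shRNF185.1 was -0.17, and the call was lost without batch 1, at 0.64 (adjusted p = 0.163), and without batch 3, at 0.36 (adjusted p = 0.262). Without batch 2 the Fbln1 value under shRNF185.3 was 0.55 (adjusted p = 0.0243), past the threshold. Fbln2, Efemp1 and Efemp2, the other fibulins, were not called. Their control means were 396 ± 66.7, 168 ± 19.8 and 132 ± 28.2 CPM, and their log2 fold changes under shRNF185.1 and shRNF185.3 were 0.26 and 0.00, -0.17 and -0.15 and 0.22 and 0.27. Fbln2 under shRNF185.1 was close to the threshold (adjusted p = 0.0595) and passed it under 6 of 30 alternatives, for example without control replicate 6, at 0.31 (adjusted p = 0.0244).

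Of the 3 tested basement membrane genes, 1 was called higher under shRNF185.1 and 2 under shRNF185.3. Of all genes tested, 14.6% and 14.2% were called higher, and 3 genes are too few to set against these shares. Hspg2, perlecan, a large heparan sulfate proteoglycan, was 417 ± 43.6 CPM in control, 666 ± 74.2 CPM under shRNF185.1 and 587 ± 54.0 CPM under shRNF185.3 (SD, n = 6), and its log2 fold changes of 0.67 and 0.50 were both called, with all 12 hairpin libraries above the control range. Nid1, nidogen, which joins the laminin and collagen IV networks, was 536 ± 84.9 CPM in control, 549 ± 62.4 CPM under shRNF185.1 and 739.5 ± 50.6 CPM under shRNF185.3. It was called under shRNF185.3 (0.47, adjusted p = 0.00124) and not under shRNF185.1 (0.03, adjusted p = 0.832), and the hairpins differed by 0.43 (adjusted p = 0.00417), a difference that without batch 1 was 0.41 (adjusted p = 0.124). Without batch 2 the Nid1 value under shRNF185.1 turned to -0.19 (adjusted p = 0.0274), past the threshold. Agrn, agrin, which organises synaptic and epithelial basement membranes, was 94.3 ± 33.7 CPM in control, 85.3 ± 14.9 CPM under shRNF185.1 and 97.7 ± 19.1 CPM under shRNF185.3, and was not called (-0.15 and 0.05). Control replicates 5 and 6, both of batch 3, held 51.6 and 50.5 CPM of Agrn, and the other control libraries 110.9 to 118.7. Within batches 1, 2 and 3 the Agrn differences were -0.49, -0.66 and 0.95 under shRNF185.1 and -0.47, -0.39 and 1.25 under shRNF185.3, and without batch 3 the values were -0.56 (adjusted p = 0.00108) under shRNF185.1 and, with its sign turned, -0.43 (adjusted p = 0.00707) under shRNF185.3, both past the threshold.

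The small leucine-rich proteoglycans bind collagen fibrils and set their diameter and spacing, and versican (Vcan) binds hyaluronan. Of 6 tested in this group, 2 (33.33%) were called higher and 1 (16.67%) lower under shRNF185.1, where 14.6% and 14.3% of all genes tested were. Under shRNF185.3, 3 (50%) were called higher and 0 lower, where 14.2% and 13.1% of all genes tested were. Dcn, decorin, also binds TGF-beta and growth factor receptors. Dcn ranged from 11.1 to 32.0 CPM in control (median 26.5), from 3.71 to 9.03 CPM under shRNF185.1 (median 4.9) and from 9.8 to 25.2 CPM under shRNF185.3 (median 17.2). All 6 libraries under shRNF185.1 were below the control range, and 5 of 6 under shRNF185.3 were within it. The Dcn log2 fold change against control was -2.11 (SE 0.29, adjusted p = 2.03e-05) under shRNF185.1 and -0.50 (SE 0.27, adjusted p = 0.182) under shRNF185.3. The Dcn differences within batches 1, 2 and 3 were -2.23, -2.73 and -1.35 on the log2 scale under shRNF185.1 and -0.79, -0.81 and 0.13 under shRNF185.3. The hairpins differed by 1.62 (SE 0.29, adjusted p = 0.000672), without overlap. Dcn lies at chr10:97479609-97518143.

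Fmod, fibromodulin, steers collagen fibril growth and cross-linking. Fmod ranged from 2.1 to 3.71 CPM in control (median 2.9), from 3.99 to 9.46 CPM under shRNF185.1 (median 5.51) and from 8.02 to 15.9 CPM under shRNF185.3 (median 12.2). Both hairpin groups were above the control range in all 6 libraries, and 5 of 6 libraries under shRNF185.3 were above the highest under shRNF185.1. The Fmod log2 fold change against control was 0.98 (SE 0.22, adjusted p = 0.0022) under shRNF185.1 and 2.03 (SE 0.22, adjusted p = 1.32e-06) under shRNF185.3. For Fmod the batch by batch log2 differences from control were 0.93, 0.64 and 1.21 under shRNF185.1 and 2.14, 1.88 and 1.96 under shRNF185.3. The difference between hairpins was 1.06 (SE 0.21, adjusted p = 0.00154), and without batch 1 it was 0.97 (adjusted p = 0.0712). Fmod lies at chr1:134037254-134048277.

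Ogn, osteoglycin, another collagen-binding member of the family, had 9 to 36 counts in the control libraries. Ogn ranged from 0.282 to 1.25 CPM in control (median 0.523), from 1.21 to 4.22 CPM under shRNF185.1 (median 1.55) and from 1.29 to 5.25 CPM under shRNF185.3 (median 3.59). Above the control range were 5 of 6 libraries under shRNF185.1 and all 6 under shRNF185.3. The Ogn log2 fold change against control was 1.78 (SE 0.43, adjusted p = 0.00428) under shRNF185.1 and 2.37 (SE 0.43, adjusted p = 0.000387) under shRNF185.3. Batch by batch (1, 2, 3), Ogn differed from control by 1.73, 1.33 and 1.92 on the log2 scale under shRNF185.1 and by 1.45, 3.07 and 2.26 under shRNF185.3. The hairpins were not shown to differ in Ogn (0.59, adjusted p = 0.384), which lies at chr13:49608046-49624501. Bgn, biglycan, the closest relative of decorin, was 28.5 ± 4.0 CPM in control, 29.3 ± 3.5 CPM under shRNF185.1 and 39.8 ± 3.65 CPM under shRNF185.3 (SD, n = 6), with log2 fold changes of 0.04 (adjusted p = 0.771) under shRNF185.1 and 0.49 (adjusted p = 0.000583) under shRNF185.3. All 6 Bgn libraries under shRNF185.3 were above both other groups, and the hairpins differed by 0.44 (adjusted p = 0.00247), a value that without batch 2 was 0.40 (adjusted p = 0.0675). Vcan was 484 ± 28.0 CPM in control, 505 ± 49.1 CPM under shRNF185.1 and 506 ± 37.5 CPM under shRNF185.3 and was not called (0.06 and 0.07). Prelp, a leucine-rich protein that anchors basement membranes to connective tissue, was not called either (0.18 and -0.10), and its differences ran from -1.43 in batch 2 to 1.06 in batch 3 under shRNF185.1. Without batch 2 the Prelp value under shRNF185.1 was 0.95 (adjusted p = 0.0151), past the threshold.

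**Figure D4:**
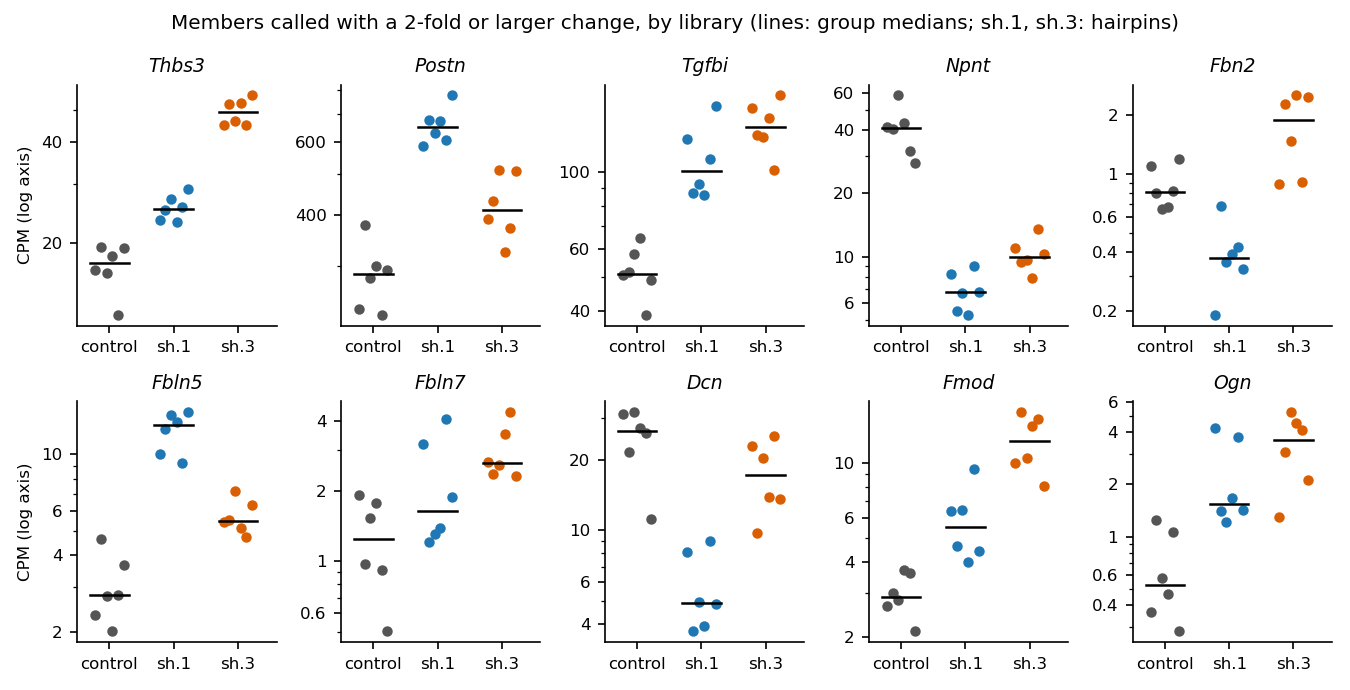
CPM on a log axis, in each of the 18 libraries (points) with group medians (lines), of the 10 members called with a log2 change of 1 or more, up or down, in any of the 3 comparisons; sh.1 and sh.3 are the hairpins. Thbs3 and Fbln5 have 3 separate groups, Npnt is lower in all 12 hairpin libraries, and Dcn and Fbn2 are lowest under shRNF185.1.

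The cell surface proteoglycans tested were syndecans, which span the membrane, and glypicans, which are held by a lipid anchor. Of 7 tested, 3 (42.86%) were called higher and 2 (28.57%) lower under shRNF185.1, where 14.6% and 14.3% of all genes tested were. Under shRNF185.3, 3 (42.86%) were called higher and 0 lower, where 14.2% and 13.1% of all genes tested were. Sdc1, the main syndecan of epithelia, was 300.1 ± 25.4 CPM in control, 405 ± 22.4 CPM under shRNF185.1 and 395 ± 42.8 CPM under shRNF185.3 (SD, n = 6), with log2 fold changes of 0.43 and 0.40, both called and without overlap with control. Sdc2, a syndecan of mesenchymal cells, was 44.1 ± 2.25 CPM in control, 28.3 ± 2.41 CPM under shRNF185.1 and 46.1 ± 3.46 CPM under shRNF185.3. Its log2 fold changes were -0.64 (adjusted p = 2.63e-07) and 0.07 (adjusted p = 0.436), and the shRNF185.1 libraries lay below all others. Sdc3, best known from the nervous system, was 422 ± 56.5 CPM in control, 281 ± 21.8 CPM under shRNF185.1 and 404 ± 35.3 CPM under shRNF185.3, with log2 fold changes of -0.59 (adjusted p = 2.77e-05) and -0.06 (adjusted p = 0.626). Tested directly, the hairpins differed by 0.71 (SE 0.06, adjusted p = 1.67e-07) in Sdc2 and 0.53 (SE 0.082, adjusted p = 0.000193) in Sdc3, and within the 3 batches by 0.72, 0.73 and 0.67 in Sdc2 and 0.53, 0.51 and 0.53 in Sdc3. Antisense genes overlap 7.73% of the exonic bases of Sdc3. Sdc4, which sits in focal adhesions, was 168 ± 31.5 CPM in control, 167 ± 29.9 CPM under shRNF185.1 and 147 ± 11.8 CPM under shRNF185.3 and was not called (-0.01 and -0.19). Without batch 2 the Sdc4 value under shRNF185.1 turned to 0.29 (adjusted p = 0.0157) and the difference between the hairpins was -0.35 (adjusted p = 0.0188), both past the threshold.

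Glypicans were higher where they were called. Gpc6 rose with log2 fold changes of 0.94 (adjusted p = 5.51e-06) and 0.51 (adjusted p = 0.00275) from a control mean of 1.92 ± 0.338 CPM. The Gpc6 value under shRNF185.3 was 0.36 (adjusted p = 0.115) without batch 1. The hairpins differed in Gpc6 by -0.43 (adjusted p = 0.0126), lower under shRNF185.3, and without batch 1 that value was -0.42 (adjusted p = 0.113) and without batch 2 -0.44 (adjusted p = 0.108). Gpc4, from 15.6 ± 2.35 CPM in control, was called under shRNF185.1 (0.51, adjusted p = 0.00394) and not under shRNF185.3 (0.33, adjusted p = 0.0519), and the hairpins were not shown to differ (-0.18, adjusted p = 0.424). The Gpc4 call was lost without batch 1, at 0.39 (adjusted p = 0.14), and without batch 3, at 0.41 (adjusted p = 0.0795). Gpc1, the most abundant glypican here per kilobase, at 219 ± 19.7 CPM in control, was called under shRNF185.3 (0.22, adjusted p = 0.0106) and not under shRNF185.1 (0.16, adjusted p = 0.0614). Its shRNF185.3 difference within batch 2 was -0.04, the call was lost without batch 1, at 0.17 (adjusted p = 0.216), and without batch 3, at 0.14 (adjusted p = 0.223), and 18.9% of its exonic bases overlap Ankmy1 on the other strand.

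The second question was where the hairpins differed from each other. Of the 39 tested members, 12 (30.77%) were called higher under shRNF185.3 than under shRNF185.1, where 7.72% of all genes tested were, and 3 (7.692%) were called lower, where 6.94% were. The 12 were Fn1, Sparc, Thbs3, Npnt, Fbn2, Emilin1, Nid1, Bgn, Dcn, Fmod, Sdc2 and Sdc3, and the 3 were Postn, Fbln5 and Gpc6. The median log2 difference was 0.19 for the tested members and -0.00043 for all genes tested. The largest differences were 2.14 (SE 0.31, adjusted p = 9.87e-05) for Fbn2, 1.62 (SE 0.29, adjusted p = 0.000672) for Dcn and -1.11 (SE 0.17, adjusted p = 0.000147) for Fbln5. Within batches 1, 2 and 3, Fbn2 differed between the hairpins by 1.76, 2.18 and 1.83, Dcn by 1.44, 1.92 and 1.47 and Fbln5 by -1.03, -1.18 and -1.08 on the log2 scale. Fn1 and Sparc, at 0.42 (adjusted p = 0.0153) and 0.27 (adjusted p = 0.0088), lost the call without batch 2, at 0.36 (adjusted p = 0.132) and 0.23 (adjusted p = 0.146), and without batch 3, at 0.41 (adjusted p = 0.1) and 0.23 (adjusted p = 0.126). This comparison shares its libraries with those above, and the level of Rnf185 was alike with both hairpins, at 5.81 and 5.80 CPM. Each hairpin is 1 group, so the hairpin and anything else that its libraries share cannot be told apart.

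Each batch held 2 libraries of every group, so every call was also looked at within batches, as the difference of mean log2 CPM with a prior count of 2. With shRNF185.1, 22 of the 24 called members had the same direction in all 3 batches, the others being Thbs2 and Fbln1. With shRNF185.3 it was 22 of 23, the other being Gpc1, and between the hairpins 15 of 15. The same libraries made the calls, and their counts were adjusted between batches, so this agreement is no independent check. For Ecm1 and Matn2 the difference under shRNF185.1 was smallest in batch 2, at 0.18 for Ecm1, against 0.56 and 0.93 in batches 1 and 3, and 0.29 for Matn2, against 0.86 and 0.78. Npnt and Dcn had their lowest values in batch 2 under shRNF185.1, at -3.06 and -2.73.

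Some members that were not called passed the threshold when 1 library was left out. Fbln2 under shRNF185.1 passed without control replicate 2, at 0.31 (adjusted p = 0.0282), control replicate 6, at 0.31 (adjusted p = 0.0244), and shRNF185.1 replicate 1, at 0.30 (adjusted p = 0.0325). Gpc1 under shRNF185.1 passed without control replicate 3, at 0.19 (adjusted p = 0.0164), control replicate 4, at 0.18 (adjusted p = 0.0341), shRNF185.1 replicate 4, at 0.18 (adjusted p = 0.0437), and shRNF185.3 replicate 3, at 0.16 (adjusted p = 0.0419). Gpc4 under shRNF185.3 passed without control replicate 3, at 0.39 (adjusted p = 0.0328), control replicate 4, at 0.37 (adjusted p = 0.0435), shRNF185.1 replicate 3, at 0.33 (adjusted p = 0.0177), and shRNF185.3 replicate 2, at 0.36 (adjusted p = 0.0499). Fbln2 is an elastic fibre glycoprotein, and Gpc1 and Gpc4 are cell surface heparan sulfate proteoglycans. Between the hairpins, Sparcl1 passed without control replicate 6, at 0.73 (adjusted p = 0.0383), Thbs1 without control replicate 2, at 0.21 (adjusted p = 0.0413), Tgfbi without shRNF185.1 replicate 6, at 0.45 (adjusted p = 0.0321), and Fbln2 without control replicate 5, at -0.26 (adjusted p = 0.0479).

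**Figure D5:**
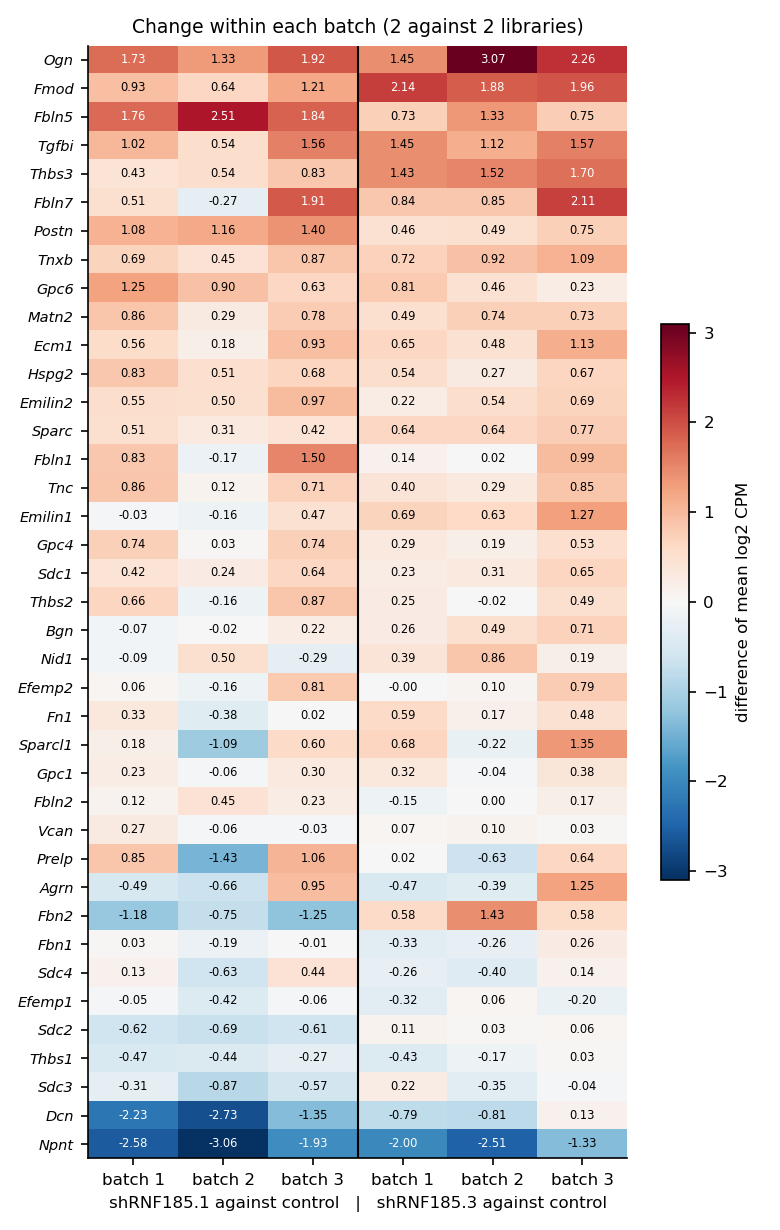
Difference of mean log2 CPM from control within each batch (2 libraries against 2) for the 39 tested members, under shRNF185.1 in the left columns and shRNF185.3 in the right, red for higher and blue for lower. Ogn, Fmod, Fbln5, Tgfbi, Thbs3 and Postn are higher and Npnt lower in all 6 columns, while Agrn, Prelp and Sparcl1 change sign between batches.

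For 7 members the 120 bases before the start of transcription were read from RefSeq (GRCm38.p6, the assembly also named mm10), so that their start regions can be compared. These 7 were called in the same direction with each hairpin and changed by at least 1 on the log2 scale under at least 1 of them. The comparisons that chose them share the control libraries. Each sequence runs 5′ to 3′ on the gene's strand and ends 1 base before the more upstream of the RefSeq and GENCODE starts, and capitals mark 3 motifs searched on both strands, none of which overlap here: the TATA box spelled TATAAA, the CCAAT box spelled by its name, and the GC box spelled GGGCGG. A match on the other strand shows as the reverse complement of these letters.
Thbs3: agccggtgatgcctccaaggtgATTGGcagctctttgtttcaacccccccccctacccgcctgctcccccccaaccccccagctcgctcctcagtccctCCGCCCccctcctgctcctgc
Postn: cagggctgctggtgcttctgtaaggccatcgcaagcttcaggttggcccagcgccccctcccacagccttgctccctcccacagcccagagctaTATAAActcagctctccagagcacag
Tgfbi: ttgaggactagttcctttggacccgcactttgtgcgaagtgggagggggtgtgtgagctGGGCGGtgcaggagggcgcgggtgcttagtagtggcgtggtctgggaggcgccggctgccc
Npnt: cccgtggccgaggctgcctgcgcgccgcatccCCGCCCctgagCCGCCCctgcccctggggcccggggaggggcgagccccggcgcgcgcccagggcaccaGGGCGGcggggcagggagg
Fbln5: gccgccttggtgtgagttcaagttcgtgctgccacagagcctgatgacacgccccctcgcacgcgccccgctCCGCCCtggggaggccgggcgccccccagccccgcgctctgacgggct
Fmod: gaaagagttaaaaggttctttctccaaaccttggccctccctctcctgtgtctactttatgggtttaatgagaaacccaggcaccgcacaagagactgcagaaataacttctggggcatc
Ogn: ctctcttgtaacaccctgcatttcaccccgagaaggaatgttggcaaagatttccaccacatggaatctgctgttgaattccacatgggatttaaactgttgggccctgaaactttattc

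They lie at chr3:89215060-89215179 for Thbs3 (plus strand), chr3:54360987-54361106 for Postn (plus strand), chr13:56609403-56609522 for Tgfbi (plus strand), chr3:132950292-132950411 for Npnt (minus strand), chr12:101819120-101819239 for Fbln5 (minus strand), chr1:134037134-134037253 for Fmod (plus strand), chr13:49607895-49608014 for Ogn (plus strand). Postn alone held the TATA box letters, 26 to 21 bases before its start, and Thbs3 alone held the CCAAT box, 98 to 94 bases before it on the other strand. The GC box was found in 4 of the 7, once each in Thbs3, Tgfbi and Fbln5 and 3 times in Npnt, and Fmod and Ogn held none of the 3 motifs in this window. Over 32851 RefSeq windows of this length, 6.34% held the TATA box letters, 21.3% the CCAAT box and 26.5% the GC box on either strand. The Npnt window was 85.8% G and C, Fmod and Ogn were 46.7% and 44.2%, and the median of all windows was 54.2%. These matches describe the letters and show no bound factor.

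Other matrix genes that act on or beside the members were counted by lists, giving shRNF185.1 first and then shRNF185.3. Of 106 such genes 74 were tested: 28 (37.84%) were called higher and 8 (10.81%) lower under shRNF185.1, where 14.6% and 14.3% of all genes tested were. Under shRNF185.3, 34 (45.95%) were called higher and 2 (2.703%) lower, where 14.2% and 13.1% of all genes tested were. The enzymes that build and modify glycosaminoglycan chains were all 31 tested, with 13 higher and 4 lower, then 15 higher and 1 lower, at median log2 fold changes of 0.07 and 0.16. Hs2st1, which sulfates heparan sulfate, was the only gene of all these lists called lower with each hairpin, from 115.8 ± 8.86 CPM in control to 99.3 ± 3.64 and 98.3 ± 5.58 (log2 fold changes of -0.22 and -0.23). In the hyaluronan list 10 were tested, with 1 higher and 2 lower, then 3 higher. The CCN family had 5 tested, with 2 higher and 1 lower, then 1 higher, and the latent TGF-beta binding proteins 4 tested, with 2 higher and 1 lower, then 2 higher.

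Among 17 other matrix glycoproteins tested, 6 were called higher under shRNF185.1, where 14.6% of all genes tested were. Under shRNF185.3, 9 were called higher and 1 lower, where 14.2% and 13.1% of all genes tested were. Lgals3bp, a secreted galectin-binding glycoprotein, went from 16.3 ± 5.97 CPM in control to 69.8 ± 19.5 and 62.1 ± 15.0 CPM (SD, n = 6), with log2 fold changes of 2.09 and 1.93. Svep1, a large adhesion protein, ranked first among the rises of these lists but had very few counts, 7 over all 6 control libraries. It was 0.0393 ± 0.0398 CPM in control, 0.753 ± 0.103 CPM under shRNF185.1 and 0.197 ± 0.185 CPM under shRNF185.3. Only under shRNF185.1 did its mean reach the 0.368 CPM that the filter asks for. Its entry into the test thus depended on the group where it was high, so its rank is not firm. Of 4 tested proteoglycan-cleaving ADAMTS proteases, 2 and then 3 were called higher. Of 3 other proteoglycans tested, 2 and then 1 were called higher. Both of these lists are too short to set against the shares of all genes tested.

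Markers of cell types were counted beside these results. Of all genes tested, 14.6% were called higher and 14.3% lower under shRNF185.1, and 14.2% higher and 13.1% lower under shRNF185.3. The marker lists are short, so their counts of calls give no firm share to set against these. In bulk RNA, fewer cells of a type and less RNA per cell cannot be told apart. Of the prostate luminal markers, Hoxb13 was present at 56.5 CPM in control while Pbsn had at most 3 counts in any library. Of 8 epithelial markers 5 were tested, and 4 were called lower under shRNF185.1 and 3 under shRNF185.3. The summed epithelial level was 1720 to 2551 CPM in control, 1021 to 1760 under shRNF185.1 and 1180 to 1383 under shRNF185.3, and the adhesion molecule Cdh1 had log2 fold changes of -1.91 and -2.13. Of 9 fibroblast or mesenchymal markers 8 were tested, and 3 were called higher under shRNF185.1 and 6 under shRNF185.3, while Thy1 had at most 3 counts. Their sum was 4429 to 5817 CPM in control, 4988 to 5859 and 5108 to 5894 with the hairpins. Of 4 smooth muscle markers 2 were tested, with 1 and then 2 called higher, at sums of 0.841 to 4.64, 3.81 to 8.67 and 4.82 to 15.7 CPM. The part of these shifts in the members' changes was not tested. Of 6 leukocyte markers 1 was tested, Cd68, which was called lower under shRNF185.1, and of 5 endothelial markers 1 was tested, Vwf, which was not called. Leukocyte markers summed to at most 5.08 CPM in any library, with Ptprc, Adgre1, Cd3e and Itgam at no more than 3 counts, and endothelial markers to at most 1.7 CPM, with Cdh5 and Tek at no more than 3 counts.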

How the data were processed

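Polyadenylated RNA of 18 MPC3 libraries was sequenced with a directional kit as single-end reads, per the labels' protocols. The authors deposited estimated counts (0.466% of the values are not whole, none of them a member's) and a library-scaled table (CPM), handled here as a signal because its columns do not sum to 1 fixed total. Both tables were adjusted between batches with ComBat-Seq, per the labels; its settings, and whether it was given the groups, are not given in the sources used here, nor is the gene annotation. The submitters' processing notes name cutadapt 2.3, STAR 2.7.0d, RSEM 1.3.1 and mm10. An adjustment of this kind lowers the spread between batches, so errors may be too small, which was not tested.

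Counts were rounded and tested with edgeR 4.0.16 (R 4.3.3): TMM scaling, a minimum count of 10, the quasi-likelihood test over all 18 libraries with a term per group, and Benjamini-Hochberg adjustment over 14309 genes. The standard error is the log2 fold change divided by the root of the F statistic. The script was tested on simulated data. Alternatives used DESeq2 1.42.0, limma 3.58.1 on log2(CPM + 1), other scalings and filters, 2 groups only, a batch covariate, a replicate block, a GC and length offset, and leaving out each library or batch. In 45 pairs of libraries of the same group, chi-square per gene was 7.64 to 84.4, above sampling noise. Gene names and exon lengths came from GENCODE M21, and all 51 symbols matched 1 identifier each. Members, role groups and other lists were chosen with earlier results of these data known. Given in full were the members called with a log2 change of 1 or more, up or down, in any comparison and the 3 highest per kilobase in control; of the other lists, the 2 most changed in each direction among genes called with both hairpins. Some genes of the cell type marker lists are not reported here.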

Additional observations from a re-analysis of the deposited data

Results flagged for a closer look

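Of 117 sets of 6 libraries (39 tested members in 3 groups), 3 had a library far from the other 5 on the log2 scale by Dixon's criterion, where chance gives 5.85. Thbs3 in control replicate 5 was 3.61 log2 CPM (12.1 CPM), and the next lowest control library held 16.2 CPM. Hspg2 in control replicate 3 was 8.98 log2 CPM (503 CPM), with the next highest control library at 413 CPM. Gpc4 in shRNF185.1 replicate 3 was 3.91 log2 CPM (15.0 CPM), with the next lowest library of that group at 21.5 CPM.

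In 15 of the 39 tested members the hairpins differed from each other in edgeR's quasi-likelihood test with Benjamini-Hochberg adjustment. By direction, 12 (30.77%) were higher and 3 (7.692%) lower under shRNF185.3, where 7.72% and 6.94% of all genes tested were. The log2 difference, shRNF185.3 against shRNF185.1, was 2.14 for Fbn2, 1.62 for Dcn, 1.06 for Fmod, 0.96 for Thbs3, 0.77 for Emilin1 and 0.71 for Sdc2. It was 0.57 for Npnt, 0.53 for Sdc3, 0.44 for Bgn, 0.43 for Nid1, 0.42 for Fn1 and 0.27 for Sparc. The 3 negative differences were -1.11 for Fbln5, -0.63 for Postn and -0.43 for Gpc6.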

How the results depend on the processing

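Each fold change was recomputed under 30 alternatives, and no called member changed sign under any of them. With shRNF185.1, 19 of 24 calls held under all alternatives, under shRNF185.3 17 of 23, and between the hairpins 8 of 15. The calls that were lost are given with their values beside each gene above. Of members not called, 7 of 15, 7 of 16 and 8 of 24 passed the threshold under at least 1 alternative, in either direction, and 11, 5 and 9 changed sign. The number called lower under shRNF185.3 was 1, and 2 with the GC and length offset and without batch 3; leaving out 1 library each gave 1 to 2, the 2 without control replicate 5. The number called lower between the hairpins was 3, and 5 with the GC and length offset and without batch 2. The other counts of members stayed within 1.5 times.

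The labels tie replicate numbers to batches and to nothing else. Deviations of same-numbered libraries correlated at -0.014 on average over 18 pairs (-0.63 to 0.71, across 9671 genes) and exceeded 0.1 in 4 pairs, and 0 of 18 libraries correlated best with their own number in both other groups. Yet on TMM-scaled log2 CPM, 7 of the 39 tested members were ordered by number alike in all 9 pairs of libraries of 1 group and batch. Dcn, Npnt, Prelp, Sdc4 and Tnxb were higher in the lower-numbered library, and Emilin1 and Sparc lower. In CPM without that scaling, Tnxb was 16.227 in shRNF185.3 replicate 3 and 16.2342 in replicate 4, the other way round. This order was not looked at over all genes tested, so it is not shown to be particular to the members. The cause was not tested. With a replicate block the number called lower under shRNF185.3 was 2, since Dcn passed the threshold at -0.52 (adjusted p = 0.0483), and Fbln2 passed under shRNF185.1 at 0.26 (adjusted p = 0.0497).

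Depth limits Fbn2 and Ogn, which had few counts in 1 group, and the 12 untested members: with no filter beyond 1 count, 10 of them entered edgeR's test, where the lowest adjusted p was 0.0612, for Lum between the hairpins (log2 difference 1.43). Leaving out a batch leaves 4 libraries a group, so a lost call there has fewer samples behind it.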
